A study of Mus musculus with 18 samples.

Results

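Cerebral blood vessels and the blood-brain barrier were described by 10 genes in the frontal cortex of 18 mice: Cldn5, Pecam1, Flt1, Tek, Slc2a1, Abcb1a, Mfsd2a, Vwf, Pdgfb and Pdgfrb. The genes were chosen by symbol as endothelial, barrier and pericyte genes, and the symbols matched 10 of the 55487 genes of the deposited count table. All 10 passed the filter on low counts, with 252 to 3046 reads per mouse in the 17 mice compared, for which counting alone gives a CV of 1.81% to 6.30%. The APP/PS1 mice carried amyloid transgenes, APPswe among them (B6C3-Tg), together with homozygous floxed farnesyltransferase (FT) β-subunit alleles (FT f/f) and no Cre. The APP/PS1/FTnKO mice carried the same alleles plus CamKIIα-Cre, which acts in forebrain excitatory neurons and not in cells of the vessel wall, so that Fntb, the FT β-subunit gene, was targeted in neurons and not in the vessel wall. The WT mice were Cre-negative FT f/f littermates by the study's methods, while the deposited record gives their strain as C57BL/6J, a difference that was not settled. Each genotype held 3 females and 3 males aged 9 to 10 months, whose brains were taken after perfusion with PBS. The comparisons address how vascular transcripts differ with the amyloid transgenes, and with neuronal FT deletion in mice that carry them.

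The endothelial cells of brain capillaries are sealed to each other by tight junctions and move few vesicles, so that most nutrients, lipids and drugs cross only through transporters and efflux pumps in their membranes. These properties are kept up by signals within the vessel wall, among them PDGF-B from the endothelium, which holds pericytes on the capillary through the receptor PDGFRβ, and by the VEGF and angiopoietin pathways. Weakening of the barrier and loss of pericytes have been described in Alzheimer's disease.

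The libraries held between 15925432 and 21030935 counted reads, with overlapping ranges in the 3 genotypes. The RNA integrity number (RIN) had medians of 8.7 in WT, 8.2 in APP/PS1 and 8.6 in APP/PS1/FTnKO mice. The female WT mouse 19622 was kept apart: its mean distance to the other WT libraries was 4.31, over the 500 genes that differed most in each pair. The other 17 lay 1.92 to 2.51 from the libraries of their own genotype, mouse 19622 included for the WT mice. In this mouse a list of cerebellum and hindbrain markers summed to 2347 normalised CPM (counts scaled to library size), against at most 63.6 in any other mouse, and a list of 7 excitatory neuron markers to 461 CPM, against at least 3823, so that its tissue went against its label. Tests therefore used the other 17 mice, of which 5 were WT. Of the genes that check the labels, App rose in APP/PS1 against WT mice (log2 fold change 0.89, edgeR FDR = 0.0001), as was Prnp, whose promoter drives the transgenes (1.58). Fntb differed by -0.77 ± 0.261 (log2, SE) for APP/PS1/FTnKO against APP/PS1 mice, which did not pass the test (edgeR FDR = 0.251). It was 28.7 and 32.1 CPM in APP/PS1 mice 19553 and 19554 and 14.2 to 17.1 in the others, beside 7.84 to 14.7 in APP/PS1/FTnKO mice. The difference thus leaned on those APP/PS1 mice. In WT mice Fntb was 16.8, 32.2, 30.8, 14.1 and 16.9 CPM, and the cause of the higher levels was not tested. In bulk tissue, fewer cells of a type and less RNA per cell cannot be told apart.

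Per length, 2 of the genes stood far above the others. Slc2a1, which encodes the glucose transporter GLUT1 of barrier endothelium and, in another form, of astrocytes, had 31.3 ± 5.37 normalised CPM per kb of exon (SD, n = 17 mice), and Cldn5, the main claudin of brain endothelial tight junctions, had 25.7 ± 6.26. Their order was not fixed, since Slc2a1 was above Cldn5 in 12 of 17 mice. Between 9.71 ± 1.76 and 6.37 ± 1.33 CPM per kb lay Mfsd2a, Abcb1a, Flt1, Pdgfrb and Pdgfb, in falling order, and the intervals of 1 SD of neighbours overlapped. Within mice, Mfsd2a exceeded Abcb1a in 14 of 17, Abcb1a exceeded Flt1 in 14, Flt1 exceeded Pdgfrb in 13 and Pdgfrb exceeded Pdgfb in 10. Tek and Pecam1, with 4.0 ± 0.761 and 3.80 ± 0.654 CPM per kb, had overlapping intervals too, with Tek above Pecam1 in 12 of 17 mice. Vwf was lowest, with 2.32 ± 0.788 CPM per kb. Length here is that of the exons of all annotated transcripts of a gene, merged. It was 1416 bases from 1 transcript for Cldn5, 13504 from 6 for Flt1 and 16064 from 11 for Vwf. The order of the genes and the steps between them depend on this length, and the length of the transcripts present was not measured. Steps larger than 1 SD on each side stood between Cldn5 and Mfsd2a, between Pdgfb and Tek and between Pecam1 and Vwf, and at each of these steps the gene above exceeded the gene below in 17 of 17 mice.

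**Figure D1:**
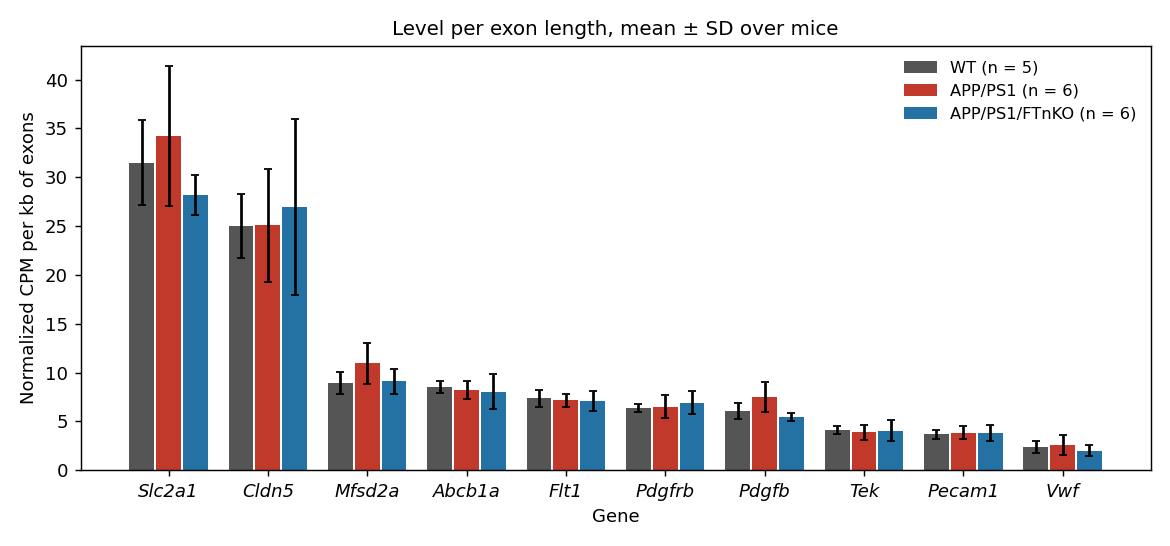
Level of each gene per length in the 3 genotypes, as normalised CPM per kb of exon; bars are means and error bars are SD over 5 WT, 6 APP/PS1 and 6 APP/PS1/FTnKO mice. Slc2a1 and Cldn5 stand above the other 8 genes in every genotype, and Vwf is lowest.

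None of the 10 genes passed the test in any genotype comparison. For APP/PS1/FTnKO against APP/PS1 mice 0 of 10 were called (edgeR's quasi-likelihood test, Benjamini-Hochberg FDR under 0.05), beside 57 of 17414 genes tested, or 0.327%. Between APP/PS1 and WT mice it was 0 of 10 beside 261 genes (1.5%), and for APP/PS1/FTnKO against WT mice 0 of 10 beside 674 genes (3.87%). Before adjustment, 2 of 10 had a p under 0.05 for APP/PS1/FTnKO against APP/PS1 (Pdgfb and Slc2a1) where 11.5% of all genes did, and 2 of 10 for APP/PS1 against WT (Pdgfb and Mfsd2a) where 14% did. For APP/PS1/FTnKO against WT it was 0 of 10 where 22.1% of all genes did. DESeq2 called 1, 0 and 0 of the 10 genes in the 3 comparisons in the same order, the 1 being Pdgfb, beside 253, 468 and 1321 of all genes. Counts of 0 to 2 in 10 are too small to be read against the background shares. The median log2 fold changes of the 10 genes were -0.018, 0.045 and -0.023, and those of all genes tested were -0.0016, -0.0023 and 0.0053. The comparisons share groups of mice and are not independent of each other. The differences furthest from 0 were those of Pdgfb, Vwf, Slc2a1 and Mfsd2a, while Cldn5, Pecam1, Flt1, Tek, Abcb1a and Pdgfrb had differences no further from 0 than the 0.12 of Pdgfrb and of Cldn5 for APP/PS1/FTnKO against WT mice. For these 6 genes the 95% intervals of the fold, APP/PS1/FTnKO against APP/PS1, ran from 0.812 at the lowest to 1.41 at the highest, so that larger changes of any of them lay outside its interval.

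**Figure D2:**
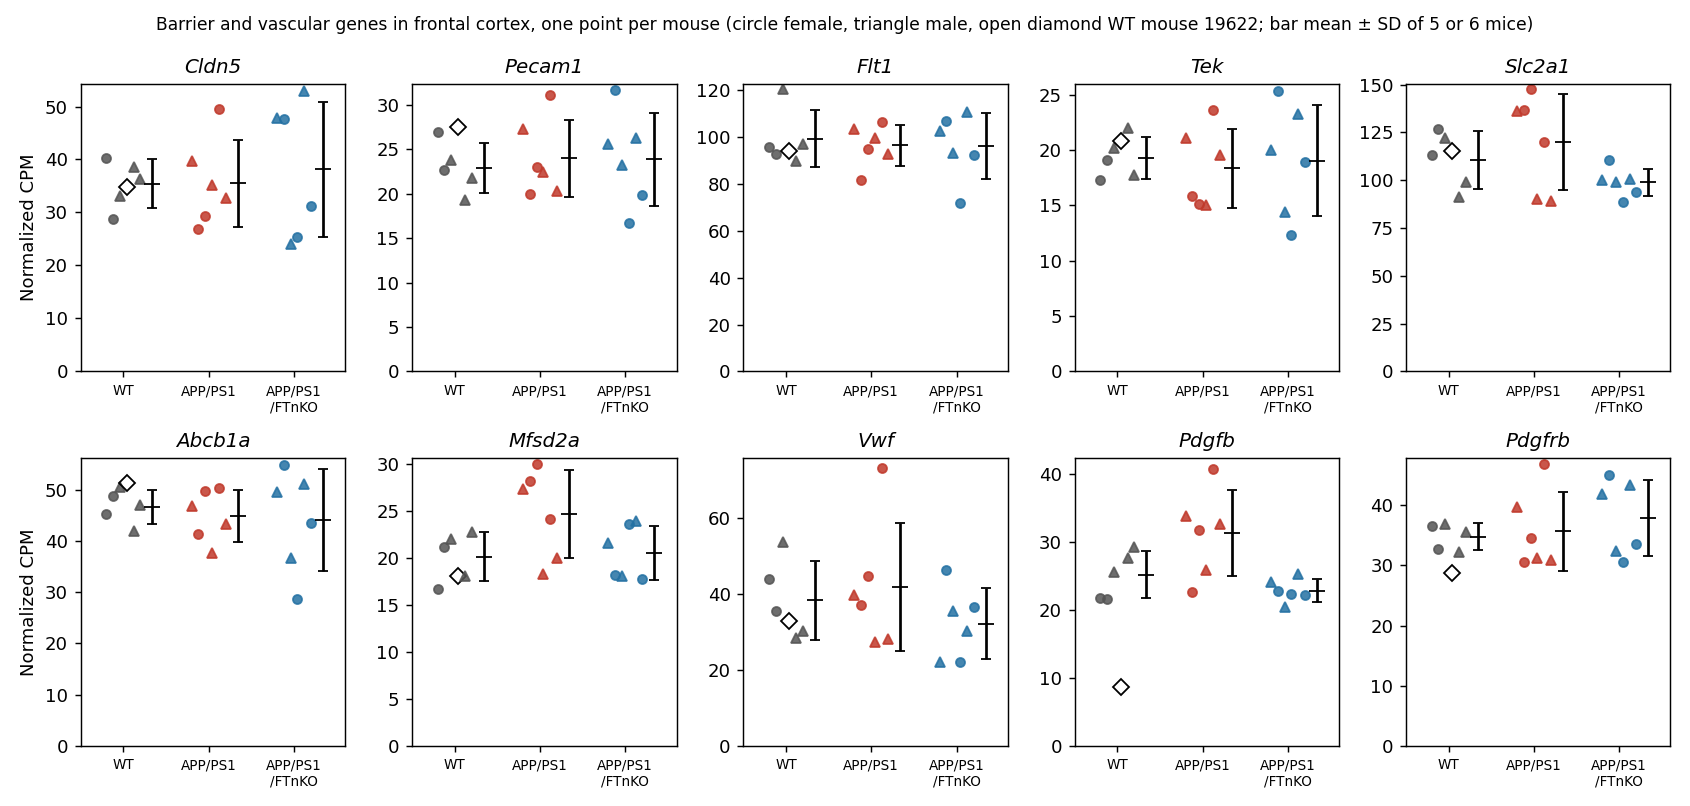
Normalised CPM of the 10 genes in every mouse by genotype; circles are females, triangles males, bars the mean ± SD of the 5 WT, 6 APP/PS1 and 6 APP/PS1/FTnKO mice, and the open diamond is WT mouse 19622, which enters no mean. The groups overlap for all 10 genes, and Pdgfb has a narrow spread in APP/PS1/FTnKO mice (20.5 to 25.3 CPM).

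**Figure D3:**
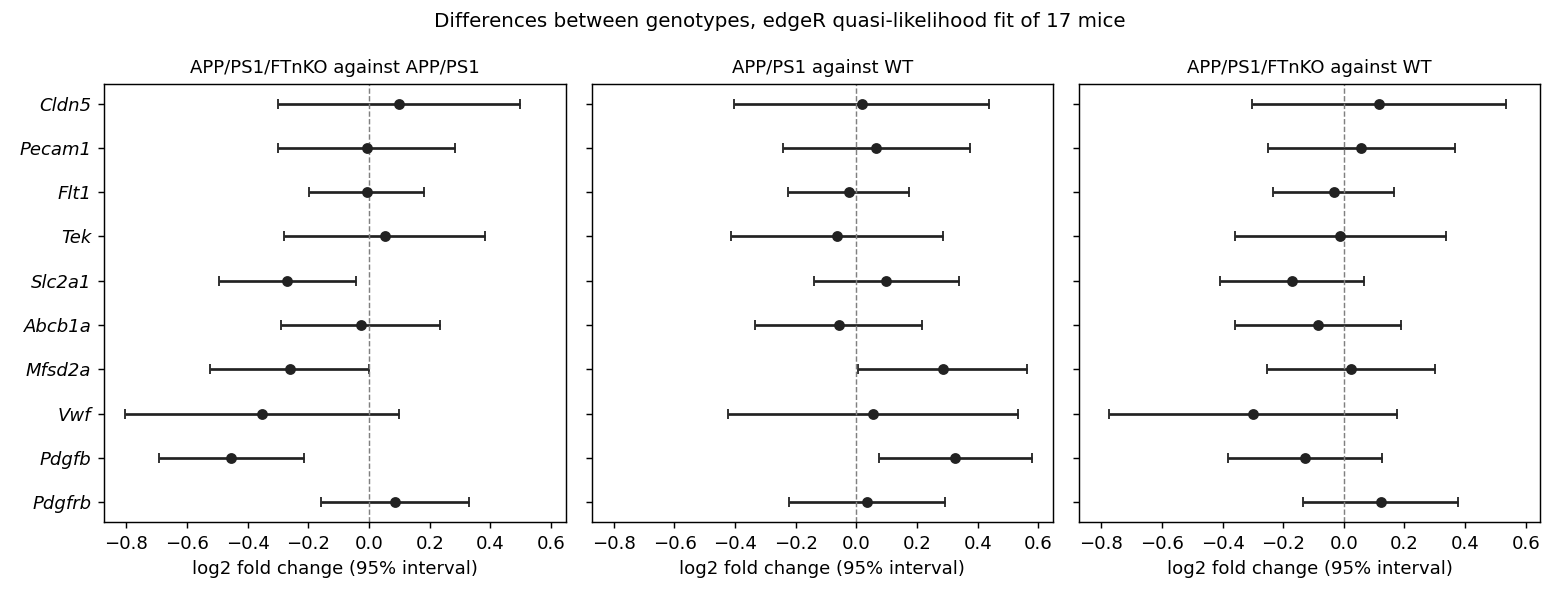
Log2 fold change of each gene in the 3 genotype comparisons, with 95% intervals from edgeR, in 17 mice. Pdgfb lies lowest in APP/PS1/FTnKO against APP/PS1 mice (-0.45), and none passes an FDR of 0.05.

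Pdgfb, whose protein PDGF-B is secreted by endothelial cells and recruits pericytes, and which neurons also express, gave the smallest p of the 10 genes. Its normalised CPM was 25.5, 27.7, 29.3, 21.8 and 21.7 in the 5 WT mice. It ran from 22.7 through a median of 32.2 to 40.7 in APP/PS1 mice, and from 20.5 through 22.5 to 25.3 in APP/PS1/FTnKO mice. The APP/PS1 mice were thus spread widely and the APP/PS1/FTnKO mice narrowly, and every APP/PS1/FTnKO mouse lay below the APP/PS1 median, although only 3 of 6 lay below every APP/PS1 mouse. The CV between APP/PS1/FTnKO mice was 7.31%, close to the 4.38% to 5.28% that their counts alone give, and 20.3% between APP/PS1 mice. The fold was 0.730 (95% interval 0.619 to 0.862), a log2 difference of -0.45 ± 0.114 (SE) with FDR = 0.101 (Benjamini-Hochberg) in edgeR's quasi-likelihood test. An exact two-sided permutation test of the difference in mean log2 CPM (-0.43, with no sex term) over 924 assignments of the mice gave p = 0.0108. The call turned on the processing: DESeq2 put Pdgfb past the threshold (FDR = 0.0143), as did edgeR without the filter on low counts (FDR = 0.0266). With mouse 19622 included, edgeR gave FDR = 0.736. Against WT, 4 of 6 APP/PS1 mice lay above every WT mouse, and the log2 difference was 0.33 ± 0.12 (edgeR FDR = 0.229, exact permutation p = 0.0909). APP/PS1/FTnKO mice differed from WT by -0.13 ± 0.12 (log2), with 6 of 6 below the WT median (edgeR FDR = 0.572). That direction turned to 0.05 when mouse 19622 was included, since its Pdgfb was 8.66 CPM, below each of the other 17 mice.

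Markers of excitatory neurons, the cells in which the Cre acts, had their lowest summed level in APP/PS1/FTnKO mice. The list of 7 (Slc17a7, Camk2a, Neurod6, Tbr1, Nrgn, Rorb and Fezf2) summed to between 5146 and 6926 CPM in WT, between 4622 and 6694 CPM in APP/PS1 and between 3823 and 5584 CPM in APP/PS1/FTnKO mice. Camk2a alone made up most of the sum in each of the 17 mice. Its log2 fold change for APP/PS1/FTnKO against APP/PS1 mice was -0.42 (edgeR FDR = 0.196), beside a median of -0.068 over the 7 genes. The lower sum thus leaned on Camk2a and does not show a fall shared by all 7. Of the 7 genes, 5 had a negative log2 fold change in that comparison, with 0 called. Against WT, 7 of 7 had one, with 1 called. This was Slc17a7, the vesicular glutamate transporter (log2 -0.46, edgeR FDR = 0.0396). That call was lost in 13 of 28 alternatives, among them all 18 mice (-0.26, FDR = 0.557) and RIN as a covariate (-0.36, FDR = 0.0602). The part of these levels in the Pdgfb values was not tested.

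Pdgfrb encodes the receptor through which PDGF-B acts on pericytes. It ran from 32.3 to 36.9 CPM with a median of 35.6 in WT, from 30.5 to 47.0 with a median of 32.9 in APP/PS1 and from 30.7 to 45.1 with a median of 37.8 in APP/PS1/FTnKO mice. The 3 ranges overlapped almost fully, and the WT mice were the most alike. The log2 difference of APP/PS1/FTnKO from APP/PS1 mice was 0.086 ± 0.116, with a fold between 0.896 and 1.26 (edgeR FDR = 0.833). The other 5 PDGF ligand and receptor genes (Pdgfa, Pdgfc, Pdgfd, Pdgfra and Pdgfrl) had 0 calls in every comparison, and 4 of 5 had a negative log2 fold change in APP/PS1/FTnKO against APP/PS1 mice, with a median of -0.032. Of them Pdgfd, another ligand of PDGFRβ, had the smallest p (log2 -0.38, edgeR FDR = 0.455). Of 15 further pericyte markers, among them Kcnj8, Abcc9, Rgs5 and Vtn, 9 had a positive and 6 a negative log2 fold change in that comparison, with a median of 0.046 and 0 calls.

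Flt1 and Tek, the receptors for VEGF ligands and for angiopoietins (VEGFR1 and Tie2), had nearly equal means in the 3 genotypes. Flt1 was 99.2 ± 12.2 CPM in WT (SD, n = 5), 96.5 ± 8.83 in APP/PS1 (n = 6) and 96.2 ± 13.9 in APP/PS1/FTnKO mice (n = 6). Tek was 19.3 ± 1.91, 18.4 ± 3.57 and 19.0 ± 5.0 CPM. The folds of APP/PS1/FTnKO over APP/PS1 mice were 0.995 (0.872 to 1.13) for Flt1 and 1.04 (0.824 to 1.30) for Tek. Of 13 further genes of the VEGF and angiopoietin pathways that could be tested, of 14 listed, 1 was called, Apln, the ligand apelin of endothelial tip cells, which neurons also express. Apln was 30 ± 5.24 CPM in WT, 20.8 ± 2.93 in APP/PS1 and 21.1 ± 2.39 in APP/PS1/FTnKO mice. It fell by 0.54 (log2) in APP/PS1 and by 0.52 in APP/PS1/FTnKO mice against WT (edgeR FDR = 0.0201 and 0.0190). The calls were lost in 6 and 4 of 28 alternatives. With mouse 19622 included the edgeR FDR values were 0.0525 and 0.0519, without WT mouse 18944 they were 0.0859 and 0.0670, and without WT mouse 19053 they were 0.0813 and 0.0635. Without APP/PS1 mouse 19723 the first was 0.0530, with RIN as a covariate it was 0.0544, and with RIN and all 18 mice they were 0.165 and 0.0805.

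Slc2a1 and Mfsd2a, which carries lysophosphatidylcholine with docosahexaenoic acid into the brain and keeps vesicle traffic in endothelium low, were highest on average in APP/PS1 mice. Slc2a1 was 122, 91.2, 99, 113 and 127 CPM in WT mice. It ran from 89.3 through a median of 128 to 148 CPM in APP/PS1 mice and from 88.8 through 99.6 to 111 in APP/PS1/FTnKO mice. The APP/PS1 mice fell into 2 males at 90.3 and 89.3, with RIN of 8.7 and 8.6, and 4 mice at 120 or more, with RIN of 7.7 to 8.3. The 6 APP/PS1/FTnKO mice lay close together below the APP/PS1 median, 1 of them below every APP/PS1 mouse. The fold of APP/PS1/FTnKO over APP/PS1 mice was 0.830 (95% interval 0.709 to 0.971), with FDR = 0.339 in edgeR's test and an exact permutation p of 0.0974. Against WT, APP/PS1 mice had a fold of 1.07 (0.907 to 1.26) and APP/PS1/FTnKO mice a fold of 0.888 (0.753 to 1.05). The median RIN was lowest in APP/PS1 mice, and with RIN as a covariate the log2 difference of APP/PS1/FTnKO from APP/PS1 mice moved from -0.27 to -0.16, and that of APP/PS1 from WT mice turned from 0.098 to -0.12. Markers of astrocytes, which also express Slc2a1, had their highest mean sum in APP/PS1 mice too, and unlike Slc2a1 their lowest in WT mice. Gfap ran from 88.1 to 147 CPM in WT and from 335 to 1246 in APP/PS1 mice, but other markers did not rise. Slc1a2 ran from 2861 to 3726 CPM in WT and from 2789 to 3466 in APP/PS1 mice, and Dag1 from 122 to 128 and from 102 to 121. A list of 8 summed to 4596 ± 346 CPM in WT, 5414 ± 687 in APP/PS1 and 5186 ± 581 in APP/PS1/FTnKO mice, with 1 called against WT in both, Gfap (log2 2.78 in APP/PS1 and 2.53 in APP/PS1/FTnKO mice), and 0 called for APP/PS1/FTnKO against APP/PS1 mice. Aqp4, the water channel of astrocyte endfeet, was 121 ± 12.2, 169 ± 23.4 and 135 ± 24.4 CPM (log2 -0.31 for APP/PS1/FTnKO against APP/PS1 mice, edgeR FDR = 0.269). Their part in the Slc2a1 values was not tested.

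Mfsd2a was 22.0, 18, 22.7, 16.7 and 21.1 CPM in WT mice, ran from 18.3 through 25.7 to 30 in APP/PS1 and from 17.8 through 19.9 to 23.9 in APP/PS1/FTnKO mice. In APP/PS1 mice 4 of 6 lay above every WT mouse, the same 4 that had the higher Slc2a1 and RIN of 7.7 to 8.3. In APP/PS1/FTnKO mice 6 of 6 lay below the APP/PS1 median and 3 below every APP/PS1 mouse. The fold was 1.22 (1.0 to 1.48) for APP/PS1 over WT mice (edgeR FDR = 0.348, exact permutation p = 0.106) and 0.834 (0.695 to 1.0) for APP/PS1/FTnKO over APP/PS1 mice (edgeR FDR = 0.435, exact permutation p = 0.106). The log2 differences, 0.28 and -0.26, moved to 0.10 and -0.17 with RIN as a covariate. The APP/PS1 female 19554 was highest for Slc2a1 and for Mfsd2a, and its choroid plexus markers summed to 467 CPM, Ttr being 420 CPM of it, against sums of at most 78.0 CPM in the other 16 mice. Without this mouse the log2 differences of APP/PS1/FTnKO from APP/PS1 mice were -0.22 for Slc2a1 and -0.20 for Mfsd2a, and the part of choroid plexus RNA in the remaining values was not tested.

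Abcb1a, the P-glycoprotein pump that returns drugs to the blood, had close means in the 3 genotypes. It was 46.7 ± 3.33 CPM in WT, 44.9 ± 4.99 in APP/PS1 and 44.1 ± 9.92 in APP/PS1/FTnKO mice, a fold of 0.981 (0.818 to 1.18) between the last 2 groups. Its close paralog Abcb1b was 3.95 ± 0.553, 5.94 ± 1.12 and 5.06 ± 1.44 CPM, and did not pass the test for APP/PS1 against WT (log2 0.56, edgeR FDR = 0.176). The counting rule for reads that fit both genes was not stated in the sources used, which leaves the split of reads between them uncertain. Abcb1a and Slc2a1 are also overlapped by exons of Gm42686 and Gm12868 on the opposite strand, and the strand setting of the counting is not given. Over 16 further barrier transporters, among them Slco1c1, Slc7a5 and Tfrc, 12 had a negative log2 fold change in APP/PS1/FTnKO against APP/PS1 mice (median -0.14) and 12 a positive one in APP/PS1 against WT mice (median 0.114), with 0 called in either.

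The promoters of Slc2a1, Mfsd2a and Cldn5 are shown because the first pair held the largest differences among the genes with a matched sequence, which Pdgfb and Vwf had not, and the last is a defining gene of the tight junction with a difference near 0. The sequences are from RefSeq on GRCm38.p6, whose table matched 6 of the 10 genes. They run 5′ to 3′ on the coding strand, in lower case, with ACGTG (the core of hypoxia response elements) and CTTTGA (a core of TCF/LEF sites, read by Wnt signalling) in capitals on either strand.
Slc2a1 (chr4:119108495-119108740, plus strand): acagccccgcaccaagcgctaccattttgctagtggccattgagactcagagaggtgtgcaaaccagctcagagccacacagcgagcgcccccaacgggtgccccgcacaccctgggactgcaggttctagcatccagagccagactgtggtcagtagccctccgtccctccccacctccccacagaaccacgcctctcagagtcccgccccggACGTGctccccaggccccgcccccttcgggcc
Mfsd2a (chr4:122961189-122961438, minus strand): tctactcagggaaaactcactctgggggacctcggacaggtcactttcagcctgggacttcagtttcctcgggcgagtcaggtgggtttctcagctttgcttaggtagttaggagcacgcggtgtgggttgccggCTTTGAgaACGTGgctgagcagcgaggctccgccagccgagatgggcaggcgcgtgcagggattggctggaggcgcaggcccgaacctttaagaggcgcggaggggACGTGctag
Cldn5 (chr16:18776597-18776846, plus strand): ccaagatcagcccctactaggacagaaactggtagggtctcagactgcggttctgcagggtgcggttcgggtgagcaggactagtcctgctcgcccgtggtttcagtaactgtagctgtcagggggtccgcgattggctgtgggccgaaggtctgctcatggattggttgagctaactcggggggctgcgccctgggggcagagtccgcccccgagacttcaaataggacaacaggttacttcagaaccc
Slc2a1 held ACGTG at 1 place, 36 bases before the RefSeq start, which lies just past the end of the printed window. That window was trimmed by 4 bases and still runs 30 bases into the gene as the annotation used here places it. Mfsd2a held it at 107 and at 9 bases before the start and CTTTGA at 115 bases, and Cldn5 held neither. The windows of Tek and Flt1 held neither motif, and that of Abcb1a is not described, since RefSeq starts the gene far upstream of the start used here. CCGGAA, the core of ETS sites, was in none of the other 5. Of 32851 mouse promoter windows of 250 bases, 16.6% held ACGTG, 13.8% CTTTGA and 12% CCGGAA on either strand. The matches are a description and not binding sites. The genes lie at chr4:119108711-119137983 (Slc2a1), chr4:122946850-122961188 (Mfsd2a) and chr16:18776847-18778262 (Cldn5) in GRCm38. Of the others, Pecam1 lies at chr11:106654217-106750628, Flt1 at chr5:147561604-147726011, Tek at chr4:94739289-94874976, Abcb1a at chr5:8660077-8748575, Vwf at chr6:125546774-125686679 and Pdgfb at chr15:79995874-80014977, all as protein-coding genes counted over their exons.

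Of the identity and junction genes, Cldn5 had a similar centre and a different spread in each genotype. It was 33.1, 38.6, 36.2, 40.3 and 28.8 CPM in WT mice, ran from 26.8 through 33.9 to 49.5 in APP/PS1 and from 24.1 through 39.5 to 52.9 in APP/PS1/FTnKO mice. The APP/PS1/FTnKO mice held both the highest and the lowest value of the 17 mice. The fold of APP/PS1/FTnKO over APP/PS1 mice was 1.07 (0.812 to 1.41; edgeR FDR = 0.893). Pecam1, the adhesion molecule CD31 of all endothelium, was 22.9 ± 2.78, 24.0 ± 4.33 and 23.9 ± 5.23 CPM in WT, APP/PS1 and APP/PS1/FTnKO mice, a fold of 0.994 (0.812 to 1.22) between the last 2. Mouse 19622, of another tissue by its markers, lay within the range of the other 17 for Cldn5 and Pecam1, and for 8 of the 10 genes, and below it for Pdgfb and Pdgfrb.

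Vwf, the adhesive protein of platelet capture that larger vessels and veins express most, was widely spread between mice, with CVs of 27.3% in WT, 40.3% in APP/PS1 and 29.1% in APP/PS1/FTnKO mice. It was 53.5, 28.4, 30.1, 43.7 and 35.5 CPM in WT mice, ran from 27.3 through 38.3 to 73.1 in APP/PS1 and from 22.1 through 32.7 to 46.3 in APP/PS1/FTnKO mice. The highest value was that of the female APP/PS1 mouse 19723, and 5 of 6 APP/PS1/FTnKO mice lay below the APP/PS1 median. The fold of APP/PS1/FTnKO over APP/PS1 mice was 0.783 (0.573 to 1.07), with edgeR FDR = 0.584 and an exact permutation p of 0.247. Without mouse 19723 the log2 difference moved from -0.35 to -0.16, and without APP/PS1/FTnKO mouse 19394 to -0.23. Against WT, the fold of APP/PS1/FTnKO mice was 0.813 (0.585 to 1.13; edgeR FDR = 0.464). Platelets also hold Vwf, and of 7 platelet markers 2 had enough counts to be tested, with 0 called. Blood genes, haemoglobins among them, summed to between 49.2 and 1028 CPM in WT, between 3.10 and 165 CPM in APP/PS1 and between 38.2 and 448 CPM in APP/PS1/FTnKO mice, and their part in the Vwf values was not tested. Of 11 further genes of leukocyte adhesion and coagulation that could be tested, of 13 listed, 8 had a negative log2 fold change in APP/PS1/FTnKO against APP/PS1 mice (median -0.12) and 8 a positive one in APP/PS1 against WT mice (median 0.196), with 0 called.

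The 13 wider lists of vascular genes held 149 tested genes. For APP/PS1/FTnKO against APP/PS1 mice 0 of them were called in edgeR's test (all genes 0.327%), with 16 at an unadjusted p under 0.05. For APP/PS1 against WT mice 2 were called, or 1.34% (all genes 1.5%), and for APP/PS1/FTnKO against WT mice 4, or 2.68% (all genes 3.87%), so that the shares called were not above the background. In the first comparison 10 of the 13 lists had a negative median and 3 a positive one, for APP/PS1 against WT mice 2 had a negative and 11 a positive one, and for APP/PS1/FTnKO against WT mice it was 8 and 5. Among the 10 lists of the first comparison, 15 of 17 further endothelial identity genes (median log2 fold change -0.090), 13 of 16 genes of Wnt and Norrin signalling to the barrier (-0.14), 8 of 10 of basement membrane (-0.10) and 10 of 12 arterial and venous markers (-0.174) had a negative log2 fold change, beside a median over all genes of -0.0016. In APP/PS1 against WT mice 13 of the 17 endothelial identity genes were positive (median 0.144). The genes of a list vary together between mice, and the comparisons share the APP/PS1 mice, so that these counts are no more than descriptions. Junction genes (6 of 10 negative, median -0.058), transcytosis genes (5 of 7, -0.044) and VEGF and angiopoietin genes (9 of 13, -0.062) had medians closer to 0. The 3 lists with a positive median were pericyte (9 of 15 positive, median 0.046), smooth muscle (5 of 8, 0.013) and fibroblast genes (7 of 9, 0.178). The smallest p of the identity list was that of Cd34 (log2 -0.22, edgeR FDR = 0.143), that of the Wnt list was Wnt7b, a ligand that neural cells give to the endothelium (-0.25, FDR = 0.371), and that of the arterial and venous list was Hey1, a Notch target of arteries (-0.25, FDR = 0.0738).

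Apart from Apln, the called genes were of junctions and basement membrane. F11r, which encodes the junction protein JAM-A of endothelium, platelets and myeloid cells, was 7.80 ± 0.892 CPM in WT (7.13 to 9.20), 13.6 ± 2.13 in APP/PS1 (9.58 to 15.6) and 11.2 ± 1.57 in APP/PS1/FTnKO mice (8.10 to 12.3). It rose by 0.78 ± 0.126 (log2, SE) in APP/PS1 against WT mice, whose values did not overlap (edgeR FDR = 0.00204, the call held in all 28 alternatives run), and by 0.51 ± 0.126 in APP/PS1/FTnKO mice (FDR = 0.0334, lost in 10 of 28). Microglia, which are myeloid cells, moved with it. A list of 8 microglial markers summed to 411 ± 26.8 CPM in WT, 685 ± 133 in APP/PS1 and 576 ± 91.6 in APP/PS1/FTnKO mice, 5 of 8 rose in APP/PS1 against WT mice, and so did 8 of 8 markers of plaque-associated microglia. With RIN as a covariate 2 of the 5 and 7 of the 8 were called, and without WT mouse 19053 it was 3 of the 5. Their part in the F11r values was not tested. The other 9 junction genes had 0 calls in APP/PS1 against WT mice.

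Cgn, which encodes cingulin of the tight junction plaque, was 10.2 ± 0.487 CPM in WT and 12.8 ± 0.969 in APP/PS1/FTnKO mice. In APP/PS1 mice it ran from 9.13 to 12.5 CPM. In APP/PS1/FTnKO against WT mice it rose by 0.33 ± 0.0827 (edgeR FDR = 0.0343), a call that was lost in 12 of 28 alternatives. Mouse 19622 had 17.7 CPM, and with it the log2 difference was 0.18 (FDR = 0.487). Sparc, a matricellular protein of basement membrane that microglia and endothelium both make, was 174 ± 48.9 CPM in WT, 286 ± 74.1 in APP/PS1 and 306 ± 89.4 in APP/PS1/FTnKO mice. It rose by 0.81 ± 0.218 in APP/PS1/FTnKO against WT mice (edgeR FDR = 0.0474), and the call was lost in 15 of 28 alternatives. Mouse 19622 had 873 CPM of Sparc, and with it the log2 difference was 0.18 (FDR = 0.843), which turned to -0.08 when RIN was a covariate as well (FDR = 0.933). Cldn5 differed from WT by 0.018 and 0.12 (log2) in APP/PS1 and APP/PS1/FTnKO mice and passed the test in neither.

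**Figure D4:**
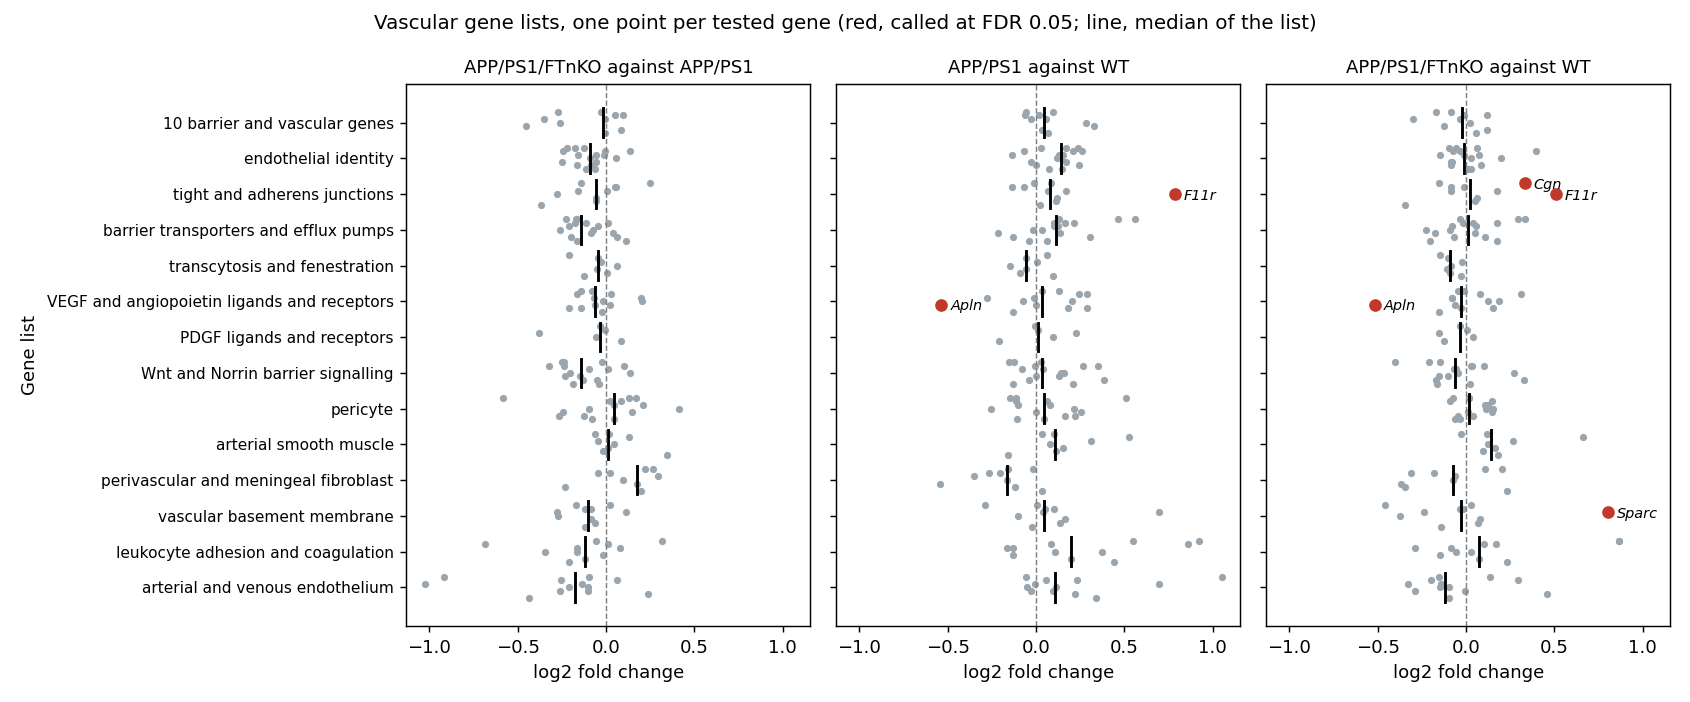
Log2 fold changes of the 10 genes and of the genes of 13 vascular lists in the 3 genotype comparisons; each point is a gene, and red points passed an FDR of 0.05. In red are F11r (0.78 in APP/PS1 against WT mice), Apln, Cgn and Sparc, and no gene is red in APP/PS1/FTnKO against APP/PS1 mice.

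Part of the 10 genes varied together between mice of the same genotype and sex. After genotype and sex means were removed from log2 CPM, the 45 pairs of the 10 genes had Pearson's r between -0.06 and 0.90 over 17 mice, with a median of 0.55. Of the 45 pairs, 23 had a Benjamini-Hochberg adjusted permutation p of r under 0.05, all positive, and 21 of them also for Spearman's rho. The permutations shuffled the values over all 17 mice and made no allowance for the means removed from them. The p-values may therefore be too small, and pairs close to the threshold are uncertain. The 6 genes Cldn5, Pecam1, Flt1, Tek, Abcb1a and Pdgfrb formed a block in which r ran from 0.66 to 0.90, and from 0.40 to 0.88 when the 2 mice farthest from the median were left out of each pair. The lowest of these was Pecam1 with Tek, which went from 0.67 to 0.40, and Pecam1 with Abcb1a went from 0.76 to 0.55. The block was picked for its high r. Vwf was related to Flt1 (r = 0.79), Pecam1 (0.71) and Pdgfrb (0.66), each with adjusted permutation p under 0.05 for r and rho, and to Abcb1a (0.57) for r alone, and these r became 0.67, 0.59, 0.43 and 0.32 without the 2 farthest mice. Pecam1 and Pdgfrb, an endothelial and a pericyte gene, had r = 0.90 and rho = 0.85 (adjusted permutation p = 0.00015 and 0.000675), and r = 0.88 without the 2 mice farthest from the median of Pecam1. Cldn5 and Pdgfrb had r = 0.87 and rho = 0.88 (adjusted permutation p = 0.00015 and 0.00045), with r = 0.85 without the 2 farthest mice.

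Slc2a1 was related to Mfsd2a and to Abcb1a. Slc2a1 and Mfsd2a had r = 0.63 and rho = 0.66 (permutation p = 0.00899 and 0.00504, adjusted 0.0202 and 0.0157), and r = 0.45 without the 2 farthest mice. Slc2a1 and Abcb1a had r = 0.56 and rho = 0.56 (permutation p = 0.0169 and 0.0218, adjusted 0.0346 and 0.0469), and r = 0.54 without the 2 farthest mice. Mfsd2a had r of -0.04, -0.06, 0.00, -0.05 and 0.19 to Cldn5, Pecam1, Flt1, Tek and Pdgfrb. Its r to Abcb1a was 0.17 and became 0.65 without the 2 farthest mice, so that this value rests on those mice. Pdgfb and its receptor had r = 0.64 and rho = 0.56 (permutation p = 0.00543 and 0.0219, adjusted 0.0129 and 0.0469), which fell to 0.39 without the 2 farthest mice and so rests in part on them. The mice share tissue pieces and libraries across the 10 genes, and the amount of vessel in each piece was not measured.

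**Figure D5:**
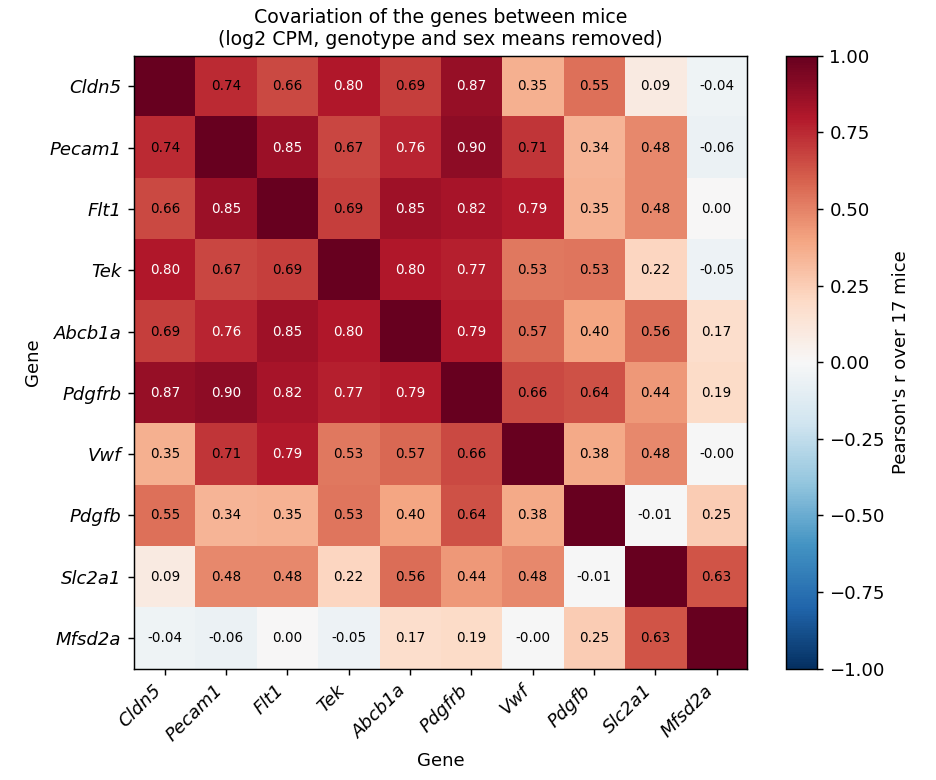
Pearson's r of each pair of the 10 genes over 17 mice, on log2 CPM with genotype and sex means removed. Cldn5, Pecam1, Flt1, Tek, Abcb1a and Pdgfrb form a block (r from 0.66 to 0.90), and Mfsd2a is near 0 with Cldn5, Pecam1, Flt1 and Tek.

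Some mice were highest or lowest of their genotype for many of the 10 genes. The APP/PS1 female 19723 was the highest of its genotype for 8 of the 10 genes, all but Slc2a1 and Mfsd2a, for which female 19554 was highest. The APP/PS1/FTnKO female 18943 was highest for 6 genes and female 19394 lowest for 6, and the WT male 19718 lowest for 6. Among the 3 genes most like each of the 10 over the 17 mice, 9 of 30 entries belonged to the vascular lists. For Cldn5 the closest was Cdh5, the endothelial cadherin (r = 0.93, rho = 0.90), for Pecam1 Lamb2 (0.92 and 0.88), for Flt1 Nod1 (0.93 and 0.93), for Tek Gbp7 (0.93 and 0.91), for Abcb1a Itm2a (0.93 and 0.91) and for Pdgfrb Lamb2, a laminin chain of basement membrane (0.95 and 0.98). For Slc2a1 it was AW112010 (0.91 and 0.90), for Mfsd2a Trnp1 (0.90 and 0.83), for Vwf Slc39a8 (0.89 and 0.82) and for Pdgfb Parvb (0.86 and 0.75). These are the highest of 17413 values each over the same 17 mice and carry no p.

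Females and males differed in none of the 10 genes past the threshold, beside 12 of 17414 genes over both directions (0.0689%) in edgeR's test, and 0 of the 10 had an unadjusted p under 0.05, as 1166 genes did. The nearest was Vwf, at 42.4 ± 14.6 CPM in 8 females and 32.7 ± 9.24 in 9 males (log2 0.37 ± 0.182, edgeR FDR = 0.759). In APP/PS1 mice Slc2a1 was 135 ± 13.8 CPM in 3 females and 105 ± 26.7 in 3 males, and Mfsd2a 27.4 ± 2.96 and 21.8 ± 4.81. The RIN of these females was 8.1, 7.9 and 8.3, and that of the males 7.7, 8.7 and 8.6. No difference between the sexes in a genotype effect was called for any of the 10 genes in edgeR's interaction test, nor for any of all genes, of which 578, 705 and 312 had an unadjusted p under 0.05 in the 3 comparisons. The smallest p of the 10 genes was that of Mfsd2a for APP/PS1 against WT (log2 difference 0.48, edgeR FDR = 1).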

How the data were processed

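Frontal cortical RNA of 18 mice was made into libraries with a kit that keeps strand (TruSeq) and read as paired ends. Reads were trimmed (Trimmomatic 0.33), mapped to GRCm38 (HISAT2 2.1.0) and assigned to genes (featureCounts) by the authors, who deposited raw counts with no normalization. The processing notes name mm9 beside mm10. Which version, annotation, strand and multi-mapping settings featureCounts had was not stated in the sources used. Each of the 18 columns is a mouse, and 0 columns were left unused.

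Tests were edgeR's quasi-likelihood F test (edgeR 4.0.16, R 4.3.3) on a model of genotype plus sex, after filterByExpr (minimum count 10) and TMM scaling, on 17 mice, without WT mouse 19622 (the study left out a WT sample, whose number its methods do not give). P-values were adjusted over 17414 genes by Benjamini-Hochberg with a threshold of 0.05 (FDR). Normalised CPM are counts scaled to the TMM-adjusted library size, and the CPM of mouse 19622 are scaled with all 18 mice. Each mouse is a replicate. Correlations used log2 CPM with a prior count of 2 and 1e+05 permutations, two-sided, and single genes an exact two-sided permutation test. Exon lengths and positions came from a GRCm38 annotation that covered 99.5% of the genes. The scripts were tested on simulated data.

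Alternatives were all 18 mice, DESeq2 1.42.0 on 17 and 18 mice, RLE scaling, no filter, a stricter filter (1 CPM in 5 mice), a robust spread, no sex term, RIN as a covariate, a fit to only the pair of genotypes compared, and leaving out each mouse, with RIN on 18 mice added after the values had been seen, 28 in all. The 10 genes and the 24 lists, with 236 genes, were chosen with earlier results of these data known. Named are the 10 genes, called genes of the lists, the gene of smallest p per list and comparison, the genes closest to each of the 10, and App, Prnp, Fntb and Camk2a as checks of the labels. Some of these are left out of the text. An item withheld from the lists is not reported here.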

Additional observations from a re-analysis of the deposited data

Results flagged for a closer look

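In 3 of 40 groups of 5 or 6 mice, a mouse lay apart from the others by Dixon's criterion, which chance gives in about 5% of groups. In WT mice Flt1 was 120 CPM in mouse 19101 and 97.1 CPM in the next, a gap of 0.762 of the range, both with and without mouse 19622. With mouse 19622 included, Pdgfb was 8.66 CPM in that mouse and 21.7 CPM in the next of the WT mice, a gap of 0.63 of the range.

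Pdgfb lay above the WT mean of its sex in 3 of 3 female APP/PS1/FTnKO mice and below it in 3 of 3 males. It was 21.7 ± 0.0737 CPM in 2 WT females, 22.4 ± 0.297 in 3 APP/PS1/FTnKO females, 27.5 ± 1.89 in 3 WT males and 23.3 ± 2.51 in 3 APP/PS1/FTnKO males. The CV of the females, 0.339% in WT and 1.32% in APP/PS1/FTnKO, was below the 4.58% to 5.21% that their counts alone give. The difference between the sexes in the log2 fold change was 0.28 ± 0.238 (SE) in edgeR's interaction test, with FDR = 1, and did not pass the threshold.

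In mouse 19622, which entered no comparison, the cerebellum and hindbrain markers summed to 2347 CPM, against at most 63.6 CPM in the other mice. Its choroid plexus markers summed to 1390 CPM, against at most 467, which was in APP/PS1 mouse 19554.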

How the results depend on the processing

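Over 28 alternatives, the 10 genes kept direction and side of the threshold in 773 values, 65 turned direction and 2 passed the threshold, both for Pdgfb. Pdgfb, Slc2a1, Mfsd2a and Vwf (APP/PS1/FTnKO against APP/PS1) and Pdgfb and Mfsd2a (APP/PS1 against WT) kept their direction in all 28. Of the 10, 1 was called with DESeq2 and 1 without the filter, in APP/PS1/FTnKO against APP/PS1 mice, and 0 to 0 with a mouse left out in each comparison.

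Genes called over the whole table moved most. For APP/PS1/FTnKO against APP/PS1 mice they were 57, and 2 with all 18 mice, 253 and 37 with DESeq2 on 17 and 18 mice, 104 without the filter, 261 with RIN, 7 with RIN and 18 mice, 5 with only the genotypes compared, and 10 to 81 with a mouse left out. For APP/PS1 against WT mice they were 261, and 468 and 427 with DESeq2, 452 without the filter, 84 with RIN, 68 with RIN and 18 mice, and 124 to 465 with a mouse left out. For APP/PS1/FTnKO against WT mice they were 674, and 261 with 18 mice, 1321 with DESeq2, 388 with RIN, 123 with RIN and 18 mice, and 206 to 987 with a mouse left out. Among the fits with a mouse left out, the lowest count for APP/PS1/FTnKO against APP/PS1 mice came without APP/PS1 mouse 19554. In both comparisons with WT mice it came without WT mouse 19053.

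The turned values of the 10 genes were these log2 differences. With RIN they were 0.0390 (Pecam1), 0.0144 (Flt1) and 0.0278 (Abcb1a) for APP/PS1/FTnKO against APP/PS1, -0.0860 (Cldn5), -0.0482 (Pecam1), -0.117 (Slc2a1), -0.00851 (Vwf) and -0.0838 (Pdgfrb) for APP/PS1 against WT, and -0.00922 (Pecam1) and -0.0699 (Mfsd2a) for APP/PS1/FTnKO against WT. With RIN and 18 mice they were 0.0401 (Pecam1), 0.0123 (Flt1) and 0.0272 (Abcb1a), then -0.0851 (Cldn5), -0.0863 (Pecam1), -0.0967 (Slc2a1) and -0.0239 (Pdgfrb), then -0.0463 (Pecam1), -0.0275 (Mfsd2a) and 0.0479 (Pdgfb). Outside the 10 genes, the called rise of Sparc (0.81, APP/PS1/FTnKO against WT) turned to -0.0828 with RIN and 18 mice. Pdgfb was 0.0524 in APP/PS1/FTnKO against WT with 18 mice, and 0.0478 with DESeq2 on 18 mice. With a mouse left out, APP/PS1/FTnKO against APP/PS1 ran from -0.0102 to 0.25 (Cldn5), -0.11 to 0.087 (Pecam1), -0.059 to 0.059 (Flt1), -0.067 to 0.15 (Tek) and -0.11 to 0.081 (Abcb1a). APP/PS1 against WT ran from -0.12 to 0.11 (Cldn5), -0.0198 to 0.14 (Pecam1), -0.0696 to 0.0373 (Flt1), -0.16 to 0.00181 (Tek), -0.12 to 0.25 (Vwf) and -0.0586 to 0.0786 (Pdgfrb). APP/PS1/FTnKO against WT ran from -0.000361 to 0.24 (Cldn5), -0.0410 to 0.15 (Pecam1), -0.0809 to 0.0301 (Flt1), -0.12 to 0.0806 (Tek), -0.16 to 0.0131 (Abcb1a) and -0.0542 to 0.0771 (Mfsd2a). The cause was not tested.

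No paired analysis was possible because the labels name mice and give no replicate numbers that groups share.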
